A study of Mus musculus with 12 samples.

Results

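The expression of 9 genes for glucose entry, lactate export and control of glycolysis was followed through 3 culture conditions of Min6, an insulin-producing mouse tumour line that stands in for the pancreatic beta cell. They are the glucose transporter genes Slc2a1, Slc2a2 and Slc2a3, the monocarboxylate transporter genes Slc16a1 and Slc16a3, the Pfkfb2, Pfkfb3 and Pfkfb4 genes of the enzyme that sets the level of the main glycolytic activator, and G6pc2, which encodes an islet glucose-6-phosphatase subunit. The members were named by pathway, with earlier results of these data known. Counts of members beside shares of all rows are therefore descriptions only. Each had exactly 1 probe set with 1 gene symbol, so all 9 genes gave 1 row each among the 35556 rows of the array. Every row held 1 log2 expression value per array, on which a difference of 1 is a doubling of the signal.

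All cells spent a first period of 5 days in medium with 15% serum at 20% oxygen. Cells of the classic condition (CC) stayed there for the whole 15 days. Cells of the defined condition (DC) were kept for the last 10 days at 5% oxygen in serum-free medium containing apo-transferrin, progesterone, putrescine and selenite. Cells of the return condition (RC) spent 5 days in that serum-free medium at 5% oxygen and then 5 days back in serum at 20% oxygen. There were 4 arrays per condition, 12 in all, from a single experiment, so the spread behind each p-value is that between these samples and may be technical. Min6 is 1 tumour-derived line established from mice carrying a viral T antigen under the insulin promoter. Serum, oxygen and the supplements changed together, so their effects cannot be told apart. In RNA from whole cultures, a change in the number of cells that express a gene and a change in RNA per cell cannot be told apart either.

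Beta cells take up glucose through facilitative transporters, of which the Slc2a2 product GLUT2 is the one classically linked to glucose sensing in rodents. Slc2a1 encodes GLUT1, a transporter of most tissues, and Slc2a3 encodes GLUT3, best known from neurons. Glucose is then phosphorylated, and in beta cells G6pc2 can reverse that step. The Pfkfb enzymes make and remove the fructose bisphosphate that activates phosphofructokinase. Lactate leaves cells with a proton through the monocarboxylate transporters MCT1 (Slc16a1) and MCT4 (Slc16a3), and normal beta cells keep Slc16a1 and the lactate dehydrogenase gene Ldha low. Slc2a1, Slc16a3, Pfkfb3 and Pfkfb4 are among the textbook targets of the hypoxia-inducible factors. This naming is not complete and does not exclude the other members as targets.

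Array medians lay between 7.92 and 8.05 and interquartile ranges between 2.42 and 2.75. Array RC 3 stood apart, with a mean correlation of 0.976 to the other RC arrays, and had the narrowest spread, followed by DC 4 and DC 2. The CC arrays fell into a pair of CC 1 and CC 2 and a pair of CC 3 and CC 4. The 13 measured beta cell markers had a mean level of 11.6 to 11.8 on every array, with Ins2 at 13.03, 13.05 and 13.02 in CC, DC and RC, while Ucn3 read 7.29, 7.45 and 7.32, below the median of all values (7.99). Of these markers Nkx2-2 and Slc30a8 were higher and Chgb was lower in DC than in CC, and in RC Slc30a8 (-0.45) and Nkx2-2 (-0.34) were lower than in DC (limma adjusted p = 0.0092 and 0.017). The 4 markers of other islet cells averaged 10.0 to 10.7. Among them the somatostatin gene Sst read 11.81, 10.55 and 12.25 in CC, DC and RC. It was lower in DC than in either (limma adjusted p = 0.0066 and 0.0020). In the same order the glucagon gene Gcg read 12.41, 12.24 and 12.37, Ppy 9.10, 9.06 and 8.90 and Ghrl 8.66, 8.79 and 8.78. Gcg, Ppy and Ghrl passed in no comparison. The 6 exocrine and ductal markers averaged 7.23 to 7.68 and the 10 fibroblast, endothelial and immune markers 7.49 to 7.88, and by limma none of these 16 passed in any comparison (unadjusted p under 0.05 for 2 of the latter in DC against CC and for 0 otherwise). The part of these marker changes in the results on DC was not tested.

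The first comparison asked what serum-free culture at 5% oxygen changed relative to CC. Slc2a1, Slc16a3, Pfkfb3 and Pfkfb4 rose and no member fell, so 4 of 9 were higher in DC, against 2.31% of all rows higher, 4.32% lower and 6.64% in either direction. Slc2a2, Slc2a3, Slc16a1, Pfkfb2 and G6pc2 did not pass. Groups did not overlap for 5 of 9 members, against 15.3% of all rows. The median difference of the members was 0.28, against 0.04 over all rows. Among all rows 823 were higher and 1537 lower in DC, and after centring the arrays on a common median 502 and 1698.

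**Figure D1:**
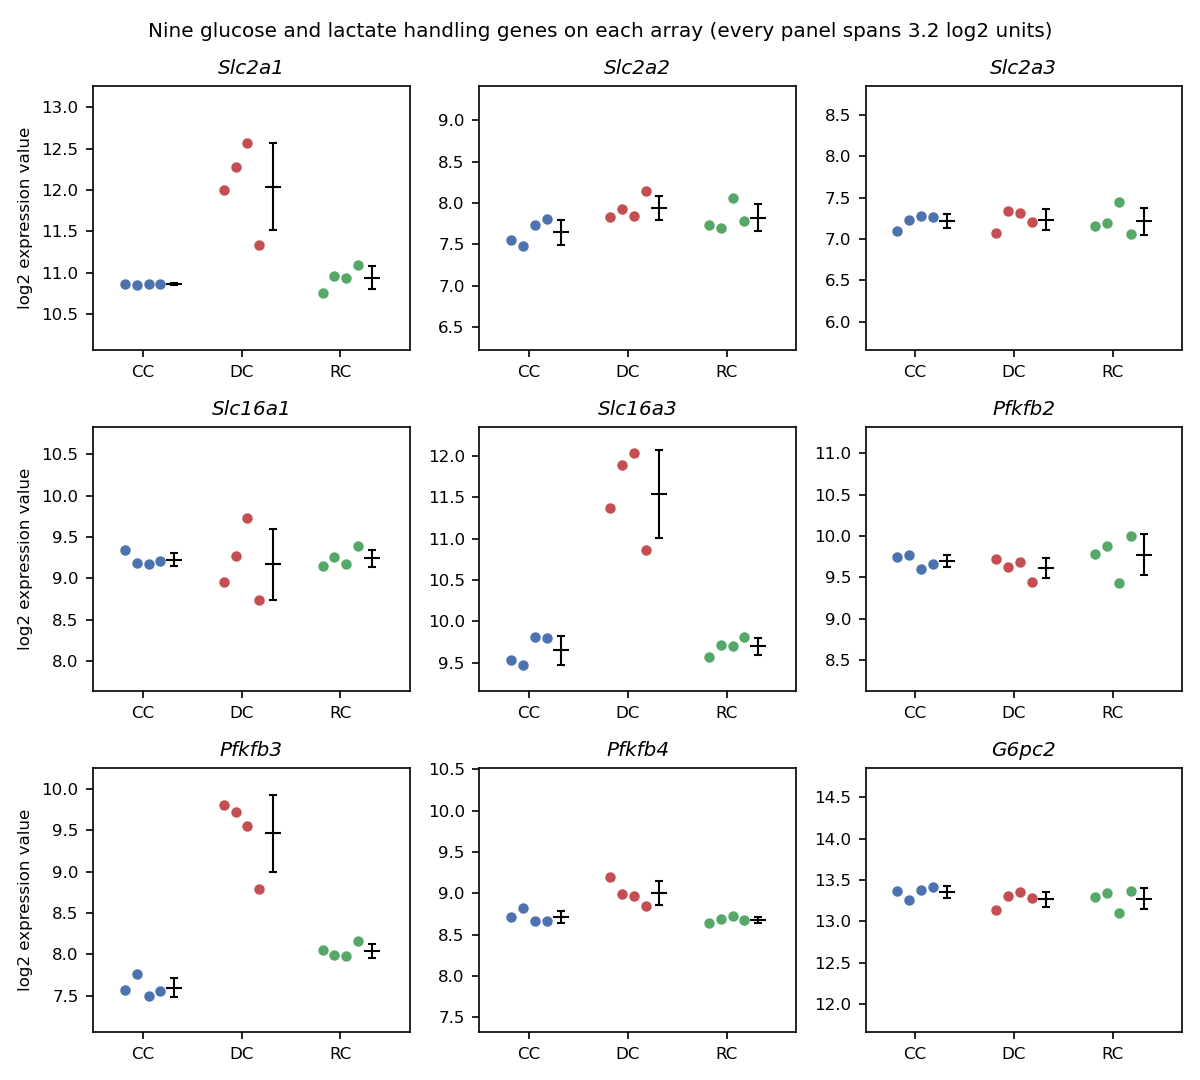
Log2 expression value (vertical axis) of each of the 9 genes on every array (points) of the classic (CC), serum-free 5% oxygen (DC) and return (RC) conditions, with the mean and SD of 4 arrays as black bars. Slc2a1, Slc16a3 and Pfkfb3 stand high in DC, Pfkfb4 is slightly higher there, and the other genes overlap or nearly touch. Each panel spans the same number of log2 units around its own centre.

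Among the glucose transporter genes Slc2a1 rose. Its CC arrays read 10.86, 10.84, 10.86 and 10.86, and its DC arrays 11.99, 12.28, 12.56 and 11.33. All DC arrays lay above all CC arrays, and the SD was 0.53 in DC against 0.01 in CC. The difference was 1.18 ± 0.20 (SE, 4 arrays per condition; 2.27-fold; limma adjusted p = 0.0027), of rank 95 by size among all rows. Without array DC 4, the lowest, it was 1.42.

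Slc2a2, the gene of GLUT2, read 7.56, 7.48, 7.74 and 7.81 in CC and 7.84, 7.93, 7.84 and 8.15 in DC. The groups touched closely without overlapping, and CC 1 and CC 2 were the lowest arrays. The difference of 0.29 ± 0.10 did not pass (limma adjusted p = 0.132, 95% interval 0.07 to 0.52), and with the array's interquartile range in the model it was 0.13. Slc2a3 read 7.09 to 7.27 in CC and 7.07 to 7.34 in DC, with overlapping groups. Its difference was 0.02, with an interval from -0.18 to 0.21. Both genes had means below the median of all values, and without detection calls their distance from background is unknown.

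The lactate carriers differed from each other. Slc16a3, the gene of MCT4, read 9.53, 9.47, 9.80 and 9.80 in CC and 11.38, 11.89, 12.03 and 10.86 in DC. The lowest DC array exceeded the highest CC array by about a whole log2 unit, and the CC values followed the CC pairs. The rise was 1.89 ± 0.20 (3.70-fold; limma adjusted p = 0.00013), of rank 16 by size. Against CC 1 and CC 2 alone it was 2.04 and against CC 3 and CC 4 alone 1.74.

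Slc16a1, the gene of MCT1, read 9.35, 9.18, 9.17 and 9.21 in CC and 8.95, 9.27, 9.73 and 8.74 in DC. The DC arrays spread to both sides of the CC range, with DC 3 above every CC array and DC 1 and DC 4 below. The SD was 0.43 in DC and 0.08 in CC, and the mean difference of -0.06 had an interval from -0.41 to 0.30.

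The Pfkfb genes split as well. Pfkfb3 encodes the isoform with the strongest bias towards making the activator, and it read 7.57, 7.76, 7.50 and 7.56 in CC and 9.81, 9.72, 9.55 and 8.79 in DC. Every DC array lay at least a log2 unit above the CC range. The rise was 1.87 ± 0.18 (3.65-fold; limma adjusted p = 4.7e-05), of rank 17 by size. Its CC mean of 7.60 lay below the median of all values (7.99), so its distance from background in CC is unknown too. Pfkfb4 read 8.72, 8.82, 8.67 and 8.67 in CC and 9.19, 8.99, 8.97 and 8.85 in DC. The groups were separate by a narrow gap between CC 2 and DC 4. This rise was small, 0.28 ± 0.07 (1.22-fold; limma adjusted p = 0.035), and did not pass after median centring (adjusted p = 0.139) or without any one of CC 1, CC 3, CC 4, DC 1, DC 2, DC 3, RC 1, RC 2 and RC 4 (adjusted p up to 0.0957). Pfkfb2, the isoform regulated by phosphorylation in heart and present in beta cells, read 9.60 to 9.77 in CC and 9.44 to 9.72 in DC. Its groups overlapped, and the difference was -0.08 with an interval from -0.31 to 0.16.

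G6pc2 read 13.36, 13.26, 13.38 and 13.41 in CC and 13.13, 13.30, 13.35 and 13.28 in DC. Its mean stood above that of 99.7% of rows, near the upper end of the array's scale, and the groups overlapped. The difference was -0.09 ± 0.07, with an interval from -0.25 to 0.07.

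**Figure D2:**
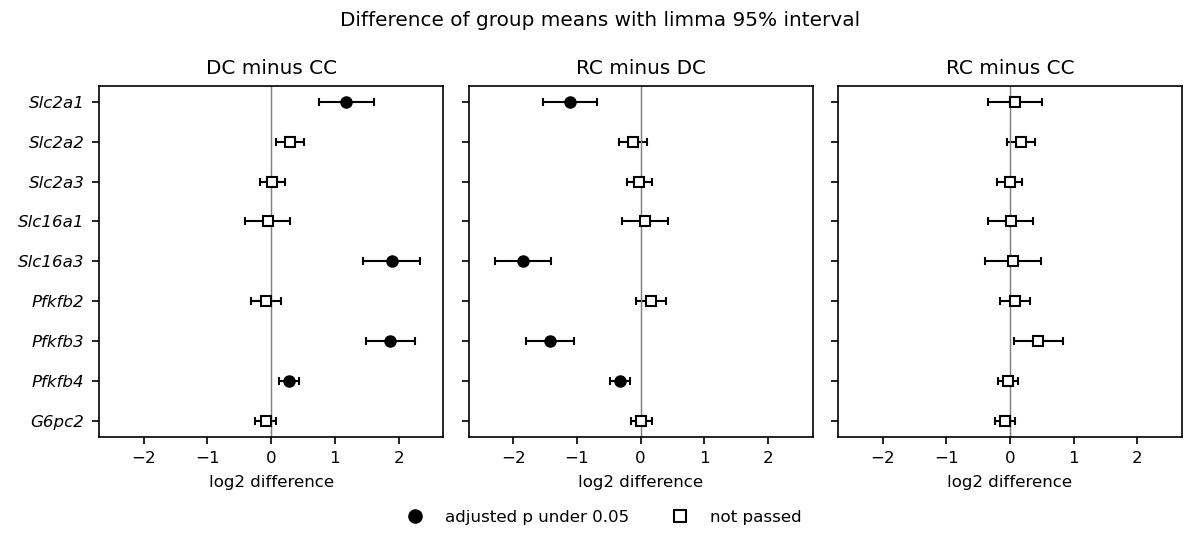
Difference of group means (log2, horizontal axis) of the 9 genes in the 3 comparisons, with limma's 95% interval; filled circles passed the adjusted threshold of 0.05 and open squares did not. The 4 members that pass in DC minus CC are those that pass, in the opposite direction, in RC minus DC, and none passes in RC minus CC, where the interval of Pfkfb3 lies above 0.

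Whether members of a family changed by unequal amounts was asked within arrays, from the log2 difference between a pair of genes on the same array, for 6 pairs in 3 comparisons (18 exact two-sided permutation tests over arrays; 0.0286 is the smallest p that 4 against 4 allows). Levels of different probe sets are not comparable, so only the change of each difference was read. Slc16a3 rose relative to Slc16a1 by 1.95 in DC, above CC on 4 of 4 arrays (exact permutation p = 0.0286; 0.0467 adjusted over the 18). The SD of this difference in DC was 0.21, below the 0.53 and 0.43 of the single genes. Slc2a1 rose by 1.17 relative to Slc2a3, and Pfkfb3 rose by 1.95 relative to Pfkfb2 and by 1.58 relative to Pfkfb4, with the same p. Pfkfb4 rose by 0.36 relative to Pfkfb2, also with that p. The change of Slc2a1 relative to Slc2a2, 0.89, did not pass (exact permutation p = 0.0857; adjusted 0.110), since on DC 4 the difference fell within the CC range.

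**Figure D3:**
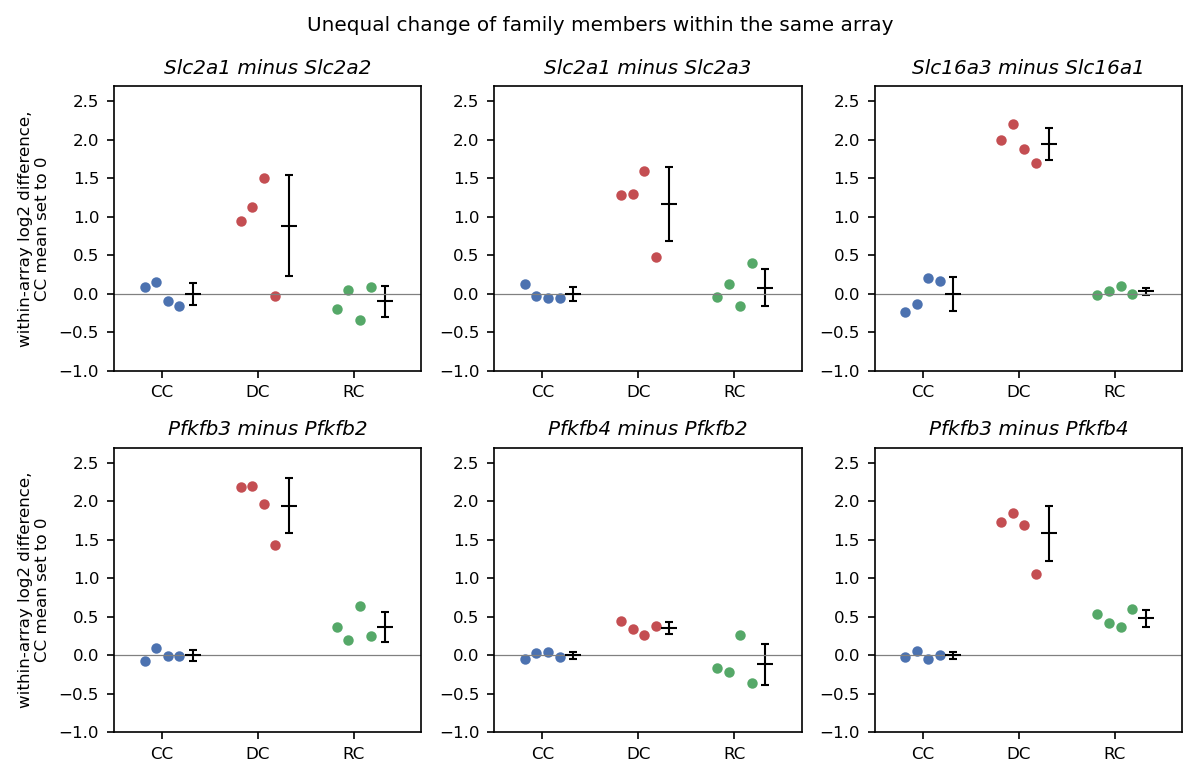
Within-array log2 difference between the named pair of genes (vertical axis, mean of CC set to 0) on each array of CC, DC and RC (points), with mean and SD of 4 arrays (black bars). All pairs but Slc2a1 minus Slc2a2 separate DC from CC. Of these 6 pairs only Pfkfb3 minus Pfkfb2 and Pfkfb3 minus Pfkfb4 also lie above CC on all RC arrays.

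The DC arrays differed more among themselves than the CC arrays did. Slc2a1, Slc16a3 and Slc16a1 took the same order over them, highest on DC 3, then DC 2, DC 1 and DC 4. Among genes outside the group, Ldha read 13.03, 12.87, 12.62 and 12.07 on these arrays in that order, and the pyruvate dehydrogenase kinase gene Pdk1 read 11.00, 10.75, 10.24 and 9.54. Both followed the same order and were chosen after their values were seen. Pfkfb3 and Pfkfb4 took another order, with DC 1 highest, while DC 4 was again the lowest. Interquartile ranges were 2.60, 2.47, 2.64 and 2.44 on DC 3, DC 2, DC 1 and DC 4, which is neither order, although DC 4 was also the narrowest. The part of the array's spread in these values was not tested.

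**Figure D4:**
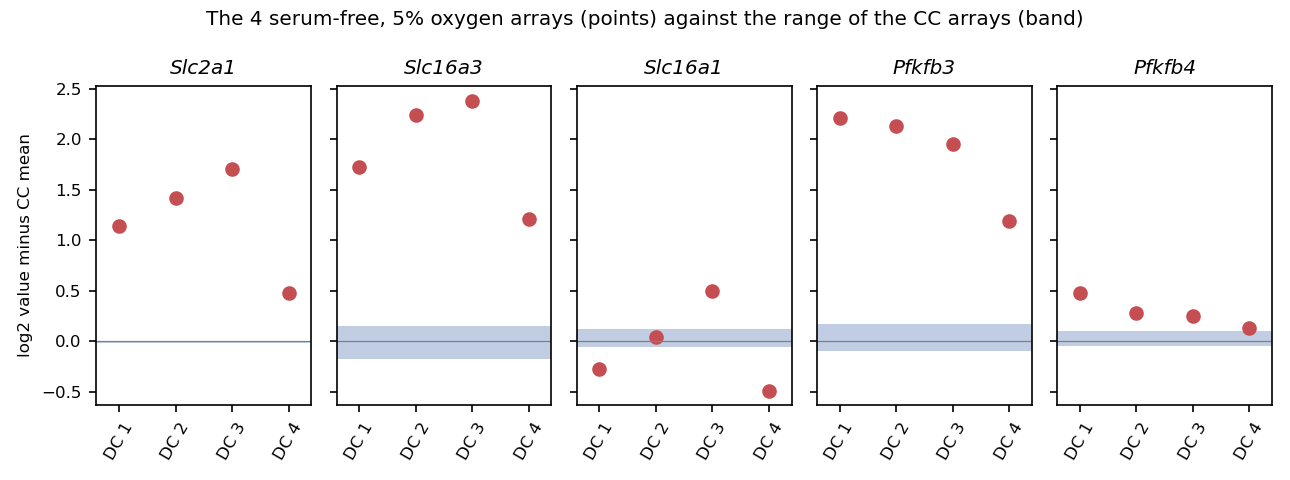
Log2 value minus the CC mean (vertical axis) on each of the 4 DC arrays (points) for 5 genes, with the range of the CC arrays as a band. DC 4 gives the lowest value of every gene shown; DC 3 is highest for Slc2a1, Slc16a3 and Slc16a1 and DC 1 for Pfkfb3 and Pfkfb4, and Slc16a1 spreads to both sides of the band.

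Promoter sequences are shown for Slc2a1, Slc16a3 and Pfkfb3, which rose most in DC, and for Slc16a1, the family member that did not pass. They come from RefSeq (GRCm38.p6), which held 12 windows for 8 of the 9 members, each with 250 bases before and 50 after a transcription start. ACGTG, the core of the motif bound by the hypoxia-inducible factors, was searched on both strands and is in capitals. It lies inside the E-box CACGTG, which gives a pair of overlapping matches, 1 on each strand.
Slc2a1, chr4:119108495-119108794, plus strand: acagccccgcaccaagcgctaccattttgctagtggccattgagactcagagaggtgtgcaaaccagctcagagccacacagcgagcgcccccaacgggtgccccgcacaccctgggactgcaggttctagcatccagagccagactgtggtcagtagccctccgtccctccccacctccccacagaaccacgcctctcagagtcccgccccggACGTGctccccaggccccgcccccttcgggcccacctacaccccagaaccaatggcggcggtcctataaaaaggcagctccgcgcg
Slc16a3, chr11:120948817-120949116, plus strand: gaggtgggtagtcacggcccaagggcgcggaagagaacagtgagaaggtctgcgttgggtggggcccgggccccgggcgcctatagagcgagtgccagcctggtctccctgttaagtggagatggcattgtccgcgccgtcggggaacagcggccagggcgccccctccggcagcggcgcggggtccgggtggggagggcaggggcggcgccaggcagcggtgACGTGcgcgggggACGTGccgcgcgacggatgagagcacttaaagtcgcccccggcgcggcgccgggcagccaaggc
Pfkfb3, chr2:11553880-11554179, minus strand: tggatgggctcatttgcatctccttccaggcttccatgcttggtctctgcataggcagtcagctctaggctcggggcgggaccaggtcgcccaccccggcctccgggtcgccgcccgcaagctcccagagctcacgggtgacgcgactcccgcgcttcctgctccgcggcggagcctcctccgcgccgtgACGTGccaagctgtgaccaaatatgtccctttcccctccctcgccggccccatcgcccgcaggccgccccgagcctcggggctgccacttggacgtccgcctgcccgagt
Slc16a1, chr3:104638414-104638713, plus strand: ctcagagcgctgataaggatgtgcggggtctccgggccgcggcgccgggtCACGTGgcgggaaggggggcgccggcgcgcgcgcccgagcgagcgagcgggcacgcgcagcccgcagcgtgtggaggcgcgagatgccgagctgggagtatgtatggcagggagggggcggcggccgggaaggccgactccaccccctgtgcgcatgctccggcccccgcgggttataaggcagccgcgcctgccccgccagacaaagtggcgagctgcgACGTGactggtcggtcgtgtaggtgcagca
The Slc16a3 window has 2 matches, whose first bases lie at -27 and -14 from the start. The Slc2a1 window has 1 at -36, and the Pfkfb3 window shown has 1 at -60. In the Slc16a1 window there are 3, at -200, -199 and 21, of which the first 2 form a CACGTG. At least 1 match was found in 8 of the 12 windows, belonging to 6 members (these 4, Pfkfb2 and G6pc2), against 19.6% of all 32851 windows of this length. The window of Pfkfb4 and that of Slc2a2 had none. The other core form, GCGTG, searched likewise, is in 7 of the 12 windows, belonging to 6 members (Slc2a1, Slc16a1, Pfkfb2, Pfkfb3, G6pc2 and Pfkfb4, at -117 in the last), against 32.4% of all windows. CACGTG is in 7.15% of all windows. Among the members it is in the Slc16a1 window, in a Pfkfb2 window (-22 and -21) and in the Pfkfb3 window not shown (-53 and -52). Matches thus occurred in members that rose and in members that did not pass, and a match is a description of the sequence only.

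The second comparison set cells returned to serum and 20% oxygen against cells kept serum-free. The same 4 genes were lower in RC, Slc16a3 most, and no member was higher, against 1.18% of all rows lower, 1.45% higher and 2.63% in either direction. Groups did not overlap for 4 of 9 members, against 6.29% of all rows. The DC arrays served in both comparisons, so these falls are not independent of the rises above.

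Slc16a3 read 9.57, 9.71, 9.70 and 9.81 in RC, all below every DC array. It was lower than in DC by 1.84 on the log2 scale (SE 0.20; 3.59-fold; limma adjusted p = 0.00033), which was rank 5 by size among all rows. Pfkfb3 read 8.05, 7.99, 7.97 and 8.16 and was 1.42 below DC (-1.42 ± 0.18; 2.68-fold; limma adjusted p = 0.00077). Slc2a1 read 10.75, 10.96, 10.94 and 11.09, also clear of DC. It was lower than in DC by 1.10 on the log2 scale (SE 0.20; 2.15-fold; limma adjusted p = 0.0085), and with only these groups in the model, where the spread of CC no longer counts, the adjusted p = 0.0599.

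Pfkfb4 read 8.64, 8.69, 8.73 and 8.68 in RC, below DC on every array. It was lower by 0.32 on the log2 scale (limma adjusted p = 0.037), and this call ended without any one of CC 1, CC 3, CC 4, DC 1, DC 2, DC 3, RC 1, RC 2 and RC 4 (adjusted p up to 0.125) and after median centring (adjusted p = 0.0871). Pfkfb2 read 9.78, 9.88, 9.43 and 10.00, with RC 3 the lowest, and overlapped DC. Its difference was 0.16, with an interval from -0.08 to 0.39, and it passed only with array weights (0.27, adjusted p = 0.0404). Slc16a1 read 9.15 to 9.39 in RC, with a spread (SD 0.11) like that of CC, and its mean differed from DC by 0.07, with an interval from -0.28 to 0.42. For Slc2a2, Slc2a3 and G6pc2 the intervals ran from -0.34 to 0.11, from -0.22 to 0.18 and from -0.15 to 0.17. RC 3 gave the highest RC value of Slc2a2 (8.06) and Slc2a3 (7.45) and the lowest of G6pc2 (13.10).

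Within arrays, Slc16a3 was lower by 1.91 relative to Slc16a1 in RC against DC, Slc2a1 by 1.08 relative to Slc2a3, Pfkfb3 by 1.58 relative to Pfkfb2 and Pfkfb3 by 1.10 relative to Pfkfb4, each lower on 4 of 4 arrays (exact permutation p = 0.0286; adjusted 0.0467). The pairs of Slc2a1 with Slc2a2 (-0.99) and of Pfkfb4 with Pfkfb2 (-0.48) did not pass (exact permutation p = 0.0857 and 0.0571; adjusted 0.110 and 0.0857).

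The last comparison asked what differed between RC, after 5 days back in serum, and CC. By limma 0 of 9 members passed, against 0.796% of all rows (0.121% higher, 0.675% lower), and 1 member, Pfkfb3, had an unadjusted p under 0.05, against 9.06% of all rows. The split of all rows, 43 higher and 240 lower, was 272 and 364 with the array's interquartile range in the model and 1477 and 1341 with array weights. Slc2a1 and Slc16a3 lay close to CC, with differences of 0.08 (interval -0.35 to 0.50) and 0.05 (interval -0.40 to 0.49). The spread of the DC arrays enters the shared error behind these intervals. Pfkfb4 differed by -0.04, with an interval from -0.19 to 0.12.

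Pfkfb3 alone among the members had separate groups. All 4 RC arrays (7.97 to 8.16) lay above all 4 CC arrays (7.50 to 7.76). Groups were separate, in either direction, in 1 of 9 members and 7.94% of all rows. The difference was 0.45 ± 0.18 (1.36-fold; interval 0.06 to 0.83; unadjusted p = 0.0259, limma adjusted p = 0.428), and 1.32% of all rows differed by as much or more. It passed without DC 4 (adjusted p = 0.0291), with only RC and CC in the model (0.0354), with array weights (0.0222) and without the 3 arrays of narrowest spread (0.0337), and in no other of 23 settings (adjusted p up to 0.712). Within arrays, Pfkfb3 was higher in RC than in CC by 0.48 relative to Pfkfb4 and by 0.37 relative to Pfkfb2. Each held on 4 of 4 arrays (exact permutation p = 0.0286; adjusted 0.0467). The DC arrays do not enter these exact p-values, but the adjustment runs over all 18 tests, including those with DC. In DC against CC 5 pairs and in RC against DC 4 pairs share this smallest p, and the adjusted value passes only with their number. An adjustment over the RC against CC pairs alone was not run. Both pairs hold the same Pfkfb3 values, so they are not independent of its own difference above. The pair with Pfkfb2 did not pass after quantile normalization (0.27; adjusted p = 0.0735). Slc2a2 was 0.18 above CC, with an interval from -0.05 to 0.40 and overlapping groups.

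The rest of the pathway was followed in 6 lists of 83 genes, of which 78 had a row with 1 symbol and were analysed here. In DC against CC 11 were higher and 11 lower, in RC against DC 5 higher and 9 lower, and in RC against CC 0 higher and 3 lower. Over all rows the shares higher and lower were 2.31% and 4.32%, then 1.45% and 1.18%, then 0.121% and 0.675%. At an unadjusted p under 0.05 the 3 counts were 33, 25 and 16 of 78, against 20.6%, 11.8% and 9.06% of all rows. The list medians in DC against CC lay between -0.01 and 0.17, against 0.04 over all rows.

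Among 11 other hexose carriers none rose and 2 fell in DC: Slc2a13, the gene of a myo-inositol carrier, by 0.42 (limma adjusted p = 0.0012), and Slc2a5, of a fructose carrier, by 0.36 (adjusted p = 0.019; up to 0.0644 without CC 3, CC 4 or DC 2, and 0.0818 after quantile normalization). None passed in RC against DC (1 with unadjusted p under 0.05), and Slc2a13 was lower in RC than in CC (-0.31; adjusted p = 0.041, up to 0.14 without DC 2 or any one CC or RC array). The insulin-regulated Slc2a4 was at 7.93 ± 0.14 in CC and 8.04 ± 0.20 in DC (SD, n = 4) and did not pass.

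Of 15 other monocarboxylate carriers and partner proteins none rose and 3 fell in DC. Slc16a10, the gene of an aromatic amino acid carrier, fell by 1.49 on the log2 scale (10.07 ± 0.07 to 8.58 ± 0.17; SD, n = 4; limma adjusted p = 9.7e-07), and Slc16a6 fell by 1.22 (adjusted p = 3.5e-06). Both were higher in RC than in DC, by 0.93 and 1.01, and Slc16a10 was lower in RC than in CC (-0.56; adjusted p = 0.010, and 0.0523 without RC 1). Emb, the gene of a chaperone of these carriers, fell by 0.47 (adjusted p = 0.026; up to 0.086 without CC 1, CC 3, CC 4, DC 1, DC 2 or DC 4). Bsg, which encodes the chaperone basigin that MCT1 and MCT4 share, had means of 12.56, 12.57 and 12.41 in CC, DC and RC, and the interval of DC against CC ran from -0.12 to 0.13. On every RC array it lay below all DC and all CC arrays, with intervals of -0.28 to -0.03 against DC and -0.27 to -0.02 against CC, but it passed in no comparison (limma adjusted p = 0.252 and 0.407 for the latter).

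Of 10 genes for phosphorylating glucose and for handling glucose 6-phosphate, 1 rose and 2 fell in DC. The glucose 6-phosphate carrier Slc37a4 rose by 0.42 (limma adjusted p = 0.0094) and was lower in RC than in DC (-0.55; adjusted p = 0.0034). The related Slc37a1 fell by 0.50 on the log2 scale (adjusted p = 0.00037) and was also lower in RC than in CC (-0.38; adjusted p = 0.018, up to 0.0813 without CC 1, CC 3, CC 4, RC 1 or RC 2, and 0.058 after quantile normalization). G6pc3, the widely expressed relative of G6pc2, fell by 0.46 (adjusted p = 0.017; up to 0.0635 without CC 1, CC 3, CC 4, DC 2 or DC 4). The hexokinases Hk1 and Hk2 did not pass, with differences of 0.13 and 0.18 in DC against CC.

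Of 6 genes that act on fructose phosphates 2 rose and none fell in DC. The phosphofructokinase subunits Pfkl and Pfkp, the enzyme that the Pfkfb product activates, rose by 1.58 (2.98-fold; limma adjusted p = 2.8e-05) and by 1.35 (2.55-fold; adjusted p = 0.00017) and were lower in RC by -1.22 and -0.90. The third subunit, Pfkm, did not pass (0.25; adjusted p = 0.086). Fbp1, of the opposing bisphosphatase, was higher in RC than in DC (0.57; adjusted p = 0.045), a call lost without any one of CC 2, CC 3, DC 2, DC 3, DC 4, RC 1, RC 2 and RC 4 (up to 0.151) and after median centring (0.0898). None passed in RC against CC, where Pfkl (0.35, unadjusted p = 0.0251, limma adjusted p = 0.426) and Pfkp (0.45, unadjusted p = 0.0112, adjusted p = 0.285) lay above CC on all RC arrays, as Pfkfb3 did. Groups were separate, in either direction, in 7.94% of all rows. Pfkl and Pfkp were singled out here after their values were seen.

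Of 17 genes that decide the fate of pyruvate 7 rose in DC and 1 fell, the lactate dehydrogenase gene Ldhb (-0.45; limma adjusted p = 0.013). Pdk1, whose product inhibits pyruvate dehydrogenase, rose by 2.32 (4.98-fold; limma adjusted p = 8.1e-05), and Ldha, whose product makes the lactate that MCT4 carries, by 1.98 (3.94-fold; adjusted p = 1.7e-05). The pyruvate carrier subunit Mpc1 rose by 0.48 (up to adjusted p = 0.0735 without CC 2, CC 3, CC 4, DC 2 or DC 3, and 0.0831 after median centring), and pyruvate kinase Pkm by 0.46 (up to 0.0919 without CC 3, CC 4, DC 2 or DC 3, and 0.0804 after median centring). Pcx (0.44), the pyruvate dehydrogenase phosphatase gene Pdp2 (0.40) and the kinase gene Pdk2 (0.32) rose too (limma adjusted p = 0.00575, 0.000991 and 0.00787). Pdp2 was lower in RC than in DC (-0.32; limma adjusted p = 0.00814). In RC against DC 5 were lower, among them Ldha (-1.48), Pdk1 (-1.43) and the pyruvate carboxylase gene Pcx (-0.37; adjusted p = 0.033, up to 0.116 without DC 2, DC 3, RC 1, RC 2 or RC 4, and 0.0788 after median centring), and Ldhb was higher (0.49; adjusted p = 0.017, up to 0.0632 without DC 2, DC 3, RC 1 or RC 2). None passed in RC against CC (3 with unadjusted p under 0.05), but 2 did without DC 4. Pdk1 (0.88, unadjusted p = 0.0027, limma adjusted p = 0.139) and Ldha (0.50, unadjusted p = 0.00985, adjusted p = 0.268) lay above CC on all RC arrays. Groups were separate, in either direction, in 7.94% of all rows. Mpc1 was also higher in RC than in CC (0.36, unadjusted p = 0.00751, limma adjusted p = 0.234), with overlapping groups. These differences were singled out after their values were seen.

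Of 19 regulators 1 rose and 3 fell in DC. Txnip, whose product limits glucose uptake, fell by 1.61 on the log2 scale (limma adjusted p = 1.0e-05) and was higher in RC than in DC by 1.23. Prkaa2, a catalytic subunit of AMP kinase, fell by 0.36 (adjusted p = 0.012) and the glucose-responsive factor gene Mlxip by 0.30 (up to adjusted p = 0.0698 without CC 1, CC 2, CC 3, DC 2 or DC 3, and 0.0853 after quantile normalization). The islet factor gene Nkx2-2 rose by 0.29 (up to 0.0703 without CC 1, CC 4 or DC 4, and 0.0533 after median centring) and was lower in RC by -0.34 (up to 0.0655 without RC 1 or RC 4). The hypoxia-inducible factor subunits themselves did not pass in DC against CC at the RNA level, with Hif1a at 0.03, Epas1 at 0.27 and Arnt at -0.26. None of the 19 passed in RC against CC (2 with unadjusted p under 0.05).

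The rows most alike in pattern were sought among 12094 rows with 1 symbol and a mean above the median of all values, by Pearson's r over the 12 arrays. The arrays share 3 conditions, so r mainly follows the group means and is given as a description. For Slc2a1 they were Ddit4 (0.979), Gys1 (0.977) and Atp7b (0.975). For Slc16a3 they were Phyhd1 (0.989), Rgs11 (0.988) and Sez6l (0.982). For Pfkfb3 they were Pfkl (0.989), Lpin1 (0.988) and the sterol synthesis gene Lss (0.987). For G6pc2, whose groups overlapped, they were Lamp2 (0.940), Scg3 (0.921) and Marchf6 (0.910).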

How the data were processed

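Total RNA of 12 Min6 samples was hybridised to Affymetrix arrays as biotinylated cDNA, per the labels' protocols. The authors' deposited table holds log2 expression values, 1 per probe set and array, for 35556 rows; the scale was read from the values, 3.69 to 14.5, and details of summarising software and normalization were not given in the sources used here. No further normalization was applied. The number of arrays limits the precision.

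Groups and replicate numbers came from sample titles. Rows were named through the platform annotation (21789 with 1 symbol, 1621 with several, 12146 with none), and 21698 matched RefSeq by gene identifier. The members and lists were chosen with earlier results of these data known. Some listed genes were not analysed here.

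A model with 3 condition means, taking in every array, was estimated with limma 3.58.1 in R 4.3.3 (lmFit, eBayes, 9 residual degrees of freedom), tested on simulated data, two-sided, with Benjamini-Hochberg adjustment over all rows and a threshold of 0.05. Named genes are all members, up to 4 called genes per list and comparison with the largest difference, and the 3 rows most alike in pattern to each of 4 members; further names were added after values were seen. Alternatives covered scaling, a level filter, the groups in the model, array weights, array spread, a replicate block, repeated rows and each array left out.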

Additional observations from a re-analysis of the deposited data

Results flagged for a closer look

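In the 9 genes and 3 conditions, 27 groups of 4 arrays were checked for an array far from the others, and chance alone marks about 1 group in 20. One was marked. Slc2a1 on array CC 2 read 10.84, while the other CC arrays all read 10.86, so the gap is a small fraction of a log2 unit and shows how tight the CC values were.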

How the results depend on the processing

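No member's called difference changed direction under any setting run. Slc2a1, Slc16a3 and Pfkfb3 passed in DC against CC under all 23 settings, and Slc16a3 and Pfkfb3 in RC against DC under all 21. With each array left out, called members numbered 3 to 4 in DC against CC and in RC against DC and 0 to 1 in RC against CC. Rows called ranged from 1549 to 3718, 522 to 2892 and 57 to 352 in the 3 comparisons, and other pathway genes from 16 to 25, 9 to 18 and 0 to 5. Counts of rows moved by over 1.5 times without CC 1 (1570), DC 2 (1549) or RC 3 (3718) in DC against CC, without DC 2 (578), RC 1 (522), RC 2 (578), RC 3 (2892) or RC 4 (574) in RC against DC, and without any one CC array, RC 1, RC 2 or RC 4 in RC against CC (57 to 151). Other pathway genes were 9 without RC 1 in RC against DC, and in RC against CC 1 without CC 1, CC 3, CC 4 or RC 2, 0 without RC 1 and 5 without DC 4. Called members were 2 in RC against DC with only those groups fitted, and 1 in RC against CC (Pfkfb3) with only those groups, with array weights and without the 3 arrays of narrowest spread. In DC against CC rows called were 4840 with array weights, 1568 with CC 1 and CC 2 alone as CC and 991 with CC 3 and CC 4 alone (other pathway genes 14 in both). In RC against DC rows called were 462 with only those groups, 6413 with array weights and 1737 with the interquartile range in the model; other pathway genes were 9, 27 with array weights, and 9 without the 3 narrowest arrays. In RC against CC rows called were 439 above the median level, 2818 with array weights, 636 with the interquartile range, 580 without the 3 narrowest arrays, 18 with CC 1 and CC 2 and 23 with CC 3 and CC 4; other pathway genes were 5 with only those groups, 15 with array weights and 0 with either CC pair. The settings without narrow arrays or with 1 CC pair were chosen after seeing the data. After quantile normalization 1 of 6 pairs, in place of 2, passed in RC against CC, and all 6 pairs passed in DC against CC and in RC against DC, in place of 5 and 4. The cause of these shifts was not tested.

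Arrays of the same number did not deviate together (correlations -0.36 to 0.47 in 12 pairs, 5 over 0.1, and 3 with their own number as the best partner). With a replicate block the rows called in RC against CC were 68 and other pathway genes 1, Pfkfb4 did not pass in DC against CC or RC against DC (adjusted p = 0.0677 and 0.0782, and with only the compared groups 0.0653 and 0.125), and no other member's call changed. The exact tests of pairs cannot pass with an array left out (smallest p 0.0571) or as numbered pairs (0.125), so only their values were compared, and each stayed within the spread between arrays. No detection calls were used here, which limits what can be said of Slc2a2 and Slc2a3, and of Pfkfb3 in CC.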
